A study of Mus musculus with 6 samples.

Results

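Voltage-gated ion channel genes were taken as all probe sets of the array whose single gene symbol begins with Kcn, Scn and a digit, Cacn, Hcn and a digit, or Clcn. The rule, which uses no measured value, found 88 of 12422 probe sets, or 68 of 8251 genes when the probe set with the highest mean stands for its gene. They comprise 42 potassium, 6 sodium, 12 calcium and 6 chloride channel genes and 2 genes of the hyperpolarisation-activated HCN channels. The name is wider than the biology. The inward rectifiers (Kcnj), the 2-pore channels (Kcnk) and the small-conductance channels (Kcnn) are not gated by voltage, several Clcn proteins are intracellular exchangers, and others of the 68 encode accessory subunits. No sodium channel beta subunit was among them.

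Total RNA came from the cerebellum of 3 male mice lacking L1cam (L1CAM knockout, -/Y) and 3 wild type siblings of no stated sex. All were of strain 129S2/SvPasCrlf, a congenic 129Sv line in the series' own text, and were taken at postnatal day 11. Each mouse had 1 Affymetrix Murine Genome U74Av2 array. Which part of L1cam was altered is not stated in the labels, which say only knockout, and the 3 wild type mice are siblings with no litter named.

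Neurons carry their signals on these channels. Sodium channels start and carry the action potential, potassium channels end it and set its rate, calcium channels couple it to transmitter release and calcium-dependent signalling, and HCN channels carry a depolarising current after hyperpolarisation. In the cerebellum, Purkinje cells fire rapidly without input and lean on sodium, P/Q-type and T-type calcium and large-conductance potassium channels, while granule neurons carry A-type potassium channels of the Kcnd family. Sodium channels and L1 family adhesion molecules both bind ankyrins at the axon initial segment and node. The comparison asks whether the transcripts of these channels differ when L1cam is missing.

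Values are RMA log2 values, so a difference of 1 is a doubling. Array medians lay between 8.87 and 8.94. L1cam itself was lower in every knockout array (8.25, 8.01 and 7.91) than in any wild type array (8.79, 8.48 and 8.73), a difference of -0.60 (SE 0.10) with a limma adjusted p of 0.841, and the exact permutation p of 0.1 is the smallest that 3 arrays against 3 allow. The tissue carried cerebellar markers, with Zic1 of granule neurons at a mean of 14.02 and Pcp2 of Purkinje cells at 13.08, while the forebrain markers Tbr1 and Neurod6 read 7.76 and 7.80. The library labelled knockout 1 stood apart in ways that matter below. Its gap between the 3' and 5' control probe sets of Gapdh, which widens when RNA is short or degraded, was 0.67 against at most 0.13 elsewhere. The same gap for beta-actin was 1.09 against 0.82 to 0.95. Its Y-linked genes Eif2s3y and Uty read 7.11 and 6.67 against at least 8.59 and 7.32, while another, Kdm5d, read 7.22 against 7.22 to 7.41. The female marker Xist read 6.33 in knockout 1 and 6.31 to 6.41 across all 6 arrays. The cause of these readings was not tested. Because that array stood apart, the main counts over all channel genes, and several genes that depend on it, are also given without it. Counts within the channel classes, partners and markers below use all 6 arrays.

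No channel probe set differed between the genotypes past an adjusted p of 0.05 in limma: 0 of 88, where the share over all probe sets was 0%. The smallest adjusted p among the 88, 0.922, left none close. Before adjustment, p lay under 0.05 for 3 of 88, those of Kcnj12, Cacna2d1 and Scn8a, all lower in the knockouts, against 5.08% of all probe sets, so the members' share of 3.41% lay below the background. The count was 9 without knockout 3, or 10.2% against 4.93% of all probe sets, and 8 without wild type 1, or 9.09% against 5.23%. It was 5 without wild type 2 (5.68% against 5.70%), 4 without knockout 2 (4.55% against 8.68%), 2 without knockout 1 (2.27% against 3.88%) and 2 without wild type 3 (2.27% against 3.18%). The 95% interval of a channel gene reached 0.156 log2 to either side at the median, and the bound farthest from 0 was -0.59, for Scn1a. In whole tissue, fewer cells of a type and less RNA per cell cannot be told apart.

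Most differences had the same sign, though its share depends on the scaling. The knockout mean was lower for 54 of 68 channel genes and higher for 14, against 61.7% lower among all 8251 genes, but with each array's median made equal 37 of 68 were lower against 44.2%, and with quantile normalization 45 of 68 against 52.9%. The median difference was -0.043 for the channel genes and -0.022 for all genes. Without knockout 1 these medians were -0.024 and -0.022, with 49 of 68 channel genes lower against 60.7% of all genes. By group, 30 of 42 potassium, 5 of 6 sodium, 8 of 12 calcium, 2 of 2 HCN and 4 of 6 chloride genes were then lower. With all arrays those counts were 32, 5, 10, 2 and 5. Without knockout 2 the medians of channel genes and all genes were -0.084 and -0.030. Differences over 0.2 log2, a size picked after the values were seen, occurred in 6 of 68 genes, namely Kcnj12, Scn1a, Cacna1g, Cacna2d1, Kcna1 and Cacna1a. All of these were lower in the knockouts. Their share was 8.82%, against 3.64% of all genes past that size in either direction. Without single arrays the count ran from 2 to 9: it was 2 without knockout 1 (3.83% of all genes) and without wild type 3 (3.04%), 4 without wild type 2 (5.58%), 5 without knockout 2 (5.87%), 8 without knockout 3 (5.76%) and 9 without wild type 1 (5.91%). It was 2 with array medians made equal (4.05%), 3 with quantile normalization (3.38%) and 8 with array weights (5.90%).

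**Figure D1:**
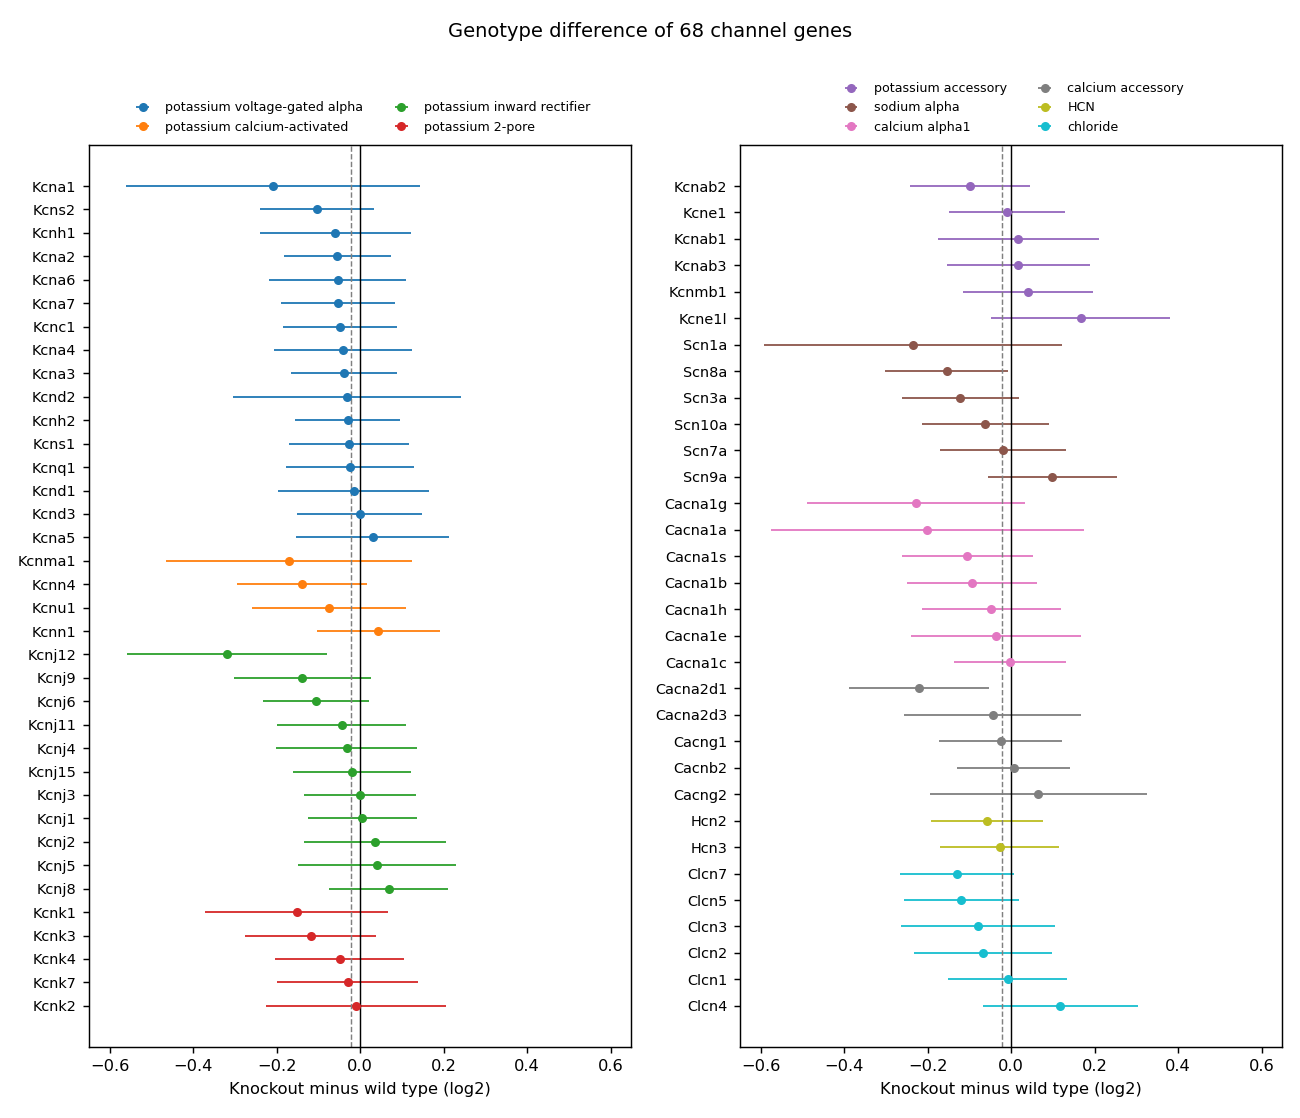
Difference between knockout and wild type (log2, horizontal axis) of each of the 68 channel genes, with its 95% interval from limma (3 arrays per genotype). Colours mark the channel classes, the solid line is 0 and the dashed line the median of all genes (-0.022). Most points lie left of 0, Kcnj12 lies farthest left at -0.32 and Kcne1l farthest right at 0.17, and only the intervals of Kcnj12, Cacna2d1 and Scn8a leave out 0.

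Among the 16 pore-forming subunits of voltage-gated potassium channels, 15 had a lower knockout mean and 1 a higher one, none past the threshold, with a median of -0.040, but with array medians made equal 9 were lower and 7 higher. Kcna1, a delayed-rectifier subunit found at basket cell terminals around Purkinje cells, read 9.48, 9.76 and 9.92 in wild type replicates 1, 2 and 3 and 9.12, 9.67 and 9.74 in the knockouts. The groups overlapped. Its difference was -0.21 (95% interval -0.56 to 0.14, adjusted p = 0.932) and ran from -0.33 without wild type 1 to -0.013 without knockout 1. Its partner Kcna2 differed by -0.05 (95% interval -0.18 to 0.07), with all 6 arrays between 8.14 and 8.25.

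The A-type subunits of granule neurons showed no detectable genotype difference with 3 arrays each. Kcnd2 read 10.14, 10.27 and 10.71 in wild type and 10.29, 10.37 and 10.38 in the knockouts, so the wild type arrays spanned the knockouts on both sides. Its difference was -0.03 (95% interval -0.30 to 0.24), was 0.14 without wild type 3 and 0.001 with array medians made equal. The second probe set of Kcnd2, dimmer at a mean of 7.73, also peaked in wild type 3 at 8.23 and differed by -0.04. Kcnd3 differed by -0.001 (95% interval -0.15 to 0.15) and Kcnc1, a fast-deactivating subunit of rapidly firing neurons, by -0.05 (95% interval -0.19 to 0.09). Kcns2, an electrically silent subunit that modifies others, read 7.98, 7.89 and 7.97 in wild type and 7.80, 7.90 and 7.82 in the knockouts, a difference of -0.10 (95% interval -0.24 to 0.03) with overlapping groups. Kcnq1, known for repolarising heart muscle, lay between 10.92 and 11.14 in all arrays at one probe set and between 8.03 and 8.35 at the other, with differences of -0.02 and -0.05. The other subunits measured (Kcna3 to Kcna7, Kcnd1, Kcnh1, Kcnh2 and Kcns1) differed by -0.06 to 0.03.

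Calcium-activated potassium channels, with the relative Kcnu1 grouped among them by symbol only, numbered 4. Of these 3 were lower and 1 higher under each scaling tried, with none past the threshold. Kcnma1, the large-conductance channel that shapes Purkinje cell firing, read 9.02, 9.19 and 9.31 in wild type and 8.70, 9.02 and 9.29 in the knockouts. Knockout 1 was the lowest array and knockout 3 reached the upper wild type values, so the groups overlapped. The difference was -0.17 (95% interval -0.47 to 0.12) and ran from -0.31 without knockout 3 to -0.020 without knockout 1. Kcnn4, the intermediate-conductance channel of blood cells, read 9.36, 9.18 and 9.31 against 9.18, 9.19 and 9.06, a difference of -0.14 (95% interval -0.29 to 0.02). Kcnn1, a small-conductance channel, read between 10.76 and 10.94 in all arrays and differed by 0.04 (95% interval -0.10 to 0.19). Kcnu1, known from sperm, differed by -0.07.

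Of the 11 inward rectifiers, which pass potassium more easily inward and hold the resting potential, 7 were lower and 4 higher, none past the threshold, with a median of -0.019 that was 0.012 with array medians made equal and 0.020 with quantile normalization. Kcnj12, a strong inward rectifier, had the widest difference of all channel genes. Its arrays read 7.24, 7.73 and 7.43 in wild type and 7.10, 7.11 and 7.22 in the knockouts. Every knockout array lay below every wild type array, though wild type 1 and knockout 3 were only 0.018 apart. The difference was -0.32 (SE 0.11, 95% interval -0.56 to -0.08, adjusted p = 0.922), or 1.25-fold lower, and it was -0.19 without wild type 2. The probe set is dim, at percentile 21.0 of mean level.

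The G-protein-gated rectifiers, which slow neurons when inhibitory receptors are active, gave mixed readings. Kcnj9 read 9.48, 9.48 and 9.69 in wild type and 9.35, 9.46 and 9.43 in the knockouts, a difference of -0.14 (95% interval -0.30 to 0.03) with no overlap, and -0.069 without wild type 3. Its second probe set went the other way, at 0.24, with wild type 3 the lowest array at 8.17. Kcnj6 read 6.93, 6.93 and 6.90 against 6.82, 6.85 and 6.78, a difference of -0.11 without overlap at percentile 14.9 of mean level, while its second probe set, at percentile 3.0, gave -0.03. Kcnj3 and Kcnj5 differed by -0.001 and 0.04. Kcnj11, the pore of ATP-sensitive channels, lay between 10.37 and 10.57 in all arrays and differed by -0.04 (95% interval -0.20 to 0.11). Kcnj8, the vascular counterpart of Kcnj11, differed by 0.07.

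The 5 genes of 2-pore potassium channels, which carry background current, all had a lower knockout mean (median -0.049), 3 of 5 with array medians made equal, none past the threshold, and Kcnk2 at -0.01 and Kcnk7 at -0.03 lay close to 0. Kcnk1 read 11.77, 11.99 and 12.10 in wild type and 11.75, 11.68 and 11.97 in the knockouts, which overlap. Its difference was -0.15 (95% interval -0.37 to 0.07) and ran from -0.24 without wild type 1 to -0.079 without wild type 3. Kcnk3, an acid-sensitive channel, read 7.64, 7.71 and 7.57 against 7.41, 7.58 and 7.58, a difference of -0.12 (95% interval -0.28 to 0.04) that was -0.062 without knockout 1. Kcnk2, a mechanically gated channel, read 11.04, 11.01 and 11.02 in wild type, a span of a few hundredths, while the knockouts ran from 10.76 to 11.15.

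Accessory potassium subunits had more genes higher than lower, 4 of 6 as deposited and 5 of 6 under both other scalings, again with none past the threshold. As deposited no other class did, while under both other scalings the inward rectifiers and the accessory calcium subunits did too. Kcne1l, a single-pass modifier subunit, read 9.64, 9.58 and 9.28 in wild type and 9.78, 9.61 and 9.61 in the knockouts. Wild type 3 was the low array and wild type 1 lay above knockouts 2 and 3, so the groups overlapped. The difference was 0.17 (95% interval -0.05 to 0.38), the largest upward one among the channel genes, and it was 0.055 without wild type 3. Kcnab2, a cytoplasmic beta subunit, read 9.50, 9.40 and 9.43 against 9.35, 9.42 and 9.27, a difference of -0.10 (95% interval -0.24 to 0.05), and -0.02 at its second probe set. The others, Kcnab1, Kcnab3, Kcne1 and Kcnmb1, differed by -0.01 to 0.04.

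Sodium channel pore subunits had 5 of 6 lower knockout means and a median of -0.092, with 4 of 6 lower under both other scalings and none past the threshold. Scn8a, a main channel of axon initial segments and nodes that supports repetitive firing of Purkinje cells, read 8.38, 8.41 and 8.54 in wild type and 8.23, 8.33 and 8.30 in the knockouts. Its groups did not overlap. The difference was -0.15 (95% interval -0.30 to -0.01, adjusted p = 0.922), but a second, very dim probe set (percentile 3.5 of mean level) differed by 0.04. Scn1a, carried by fast-firing neurons, read 8.78, 9.08 and 9.30 in wild type and 8.56, 8.72 and 9.18 in the knockouts. The groups overlapped widely. Its difference was -0.24 (95% interval -0.59 to 0.12), and -0.08 at its second probe set. Without knockout 1 it was -0.10, and without knockout 3 it was -0.41. Scn3a, a channel of the immature brain, read 6.15, 6.18 and 6.18 against 5.97, 6.04 and 6.13, a difference of -0.12 (95% interval -0.26 to 0.02) without overlap, at percentile 5.2 of mean level. Scn9a and Scn10a, best known from sensory neurons, differed by 0.10 and -0.06, and Scn7a by -0.02, all at or under percentile 14.0.

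All 7 calcium channel pore subunits had a lower knockout mean (median -0.094), where 61.7% of all genes were lower. Without knockout 1 the class median was -0.025, against -0.022 for all genes. Under both other scalings 6 of 7 were lower, and Cacna1c, at -0.003 here, lay above 0. None passed the threshold. Cacna1a, the P/Q-type channel abundant in Purkinje cells and at cerebellar synapses, read 8.84, 8.70 and 9.28 in wild type and 8.38, 8.99 and 8.85 in the knockouts. It had the widest span of all channel genes, 0.90 log2 from knockout 1 to wild type 3, wider than that of 99.7% of all genes. Its difference of -0.20 (95% interval -0.58 to 0.17) was -0.021 without knockout 1 and -0.033 without wild type 3, but -0.32 without either knockout 2 or wild type 2. Cacna1g, a T-type channel of Purkinje cells and other rebound-firing neurons, read 9.07, 9.43 and 9.52 in wild type and 8.97, 9.09 and 9.27 in the knockouts. Wild type 1 lay among the knockouts, so the groups overlapped. Its difference was -0.23 (95% interval -0.49 to 0.03, adjusted p = 0.922) and ran from -0.36 without wild type 1 to -0.14 without wild type 3. The N-type Cacna1b read 9.95, 9.86 and 9.87 against 9.81, 9.89 and 9.69, a difference of -0.09 (95% interval -0.25 to 0.06), and -0.039 without knockout 3. Cacna1s, the skeletal muscle channel, read 7.85, 7.73 and 7.79 against 7.58, 7.78 and 7.69, a difference of -0.11 (95% interval -0.26 to 0.05) that was -0.053 without knockout 1. The R-type Cacna1e and the T-type Cacna1h differed by -0.04 and -0.05.

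Accessory calcium channel subunits were split, with 3 of 5 lower as deposited and 2 of 5 under both other scalings, none past the threshold. Cacna2d1, an extracellular subunit that brings channels to the surface and is the target of gabapentin, read 7.83, 7.90 and 8.09 in wild type and 7.70, 7.77 and 7.69 in the knockouts. The groups did not overlap, by a margin of 0.056 log2. Its difference was -0.22 (SE 0.08, 95% interval -0.39 to -0.05, adjusted p = 0.922), and it ran from -0.28 without wild type 1 to -0.15 without wild type 3. Its relative Cacna2d3 read 10.47, 10.65 and 10.57 in wild type and 10.44, 10.37 and 10.74 in the knockouts, where the highest and the lowest array were both knockouts. The difference was -0.04 (95% interval -0.26 to 0.17). Cacng2, or stargazin, which carries AMPA receptors to granule neuron synapses, read 10.31, 10.19 and 10.72 against 10.43, 10.51 and 10.47. All knockouts lay inside the wild type span, and the difference was 0.07 (95% interval -0.19 to 0.32), turning to -0.044 without wild type 2. Cacnb2 and Cacng1, the latter a muscle subunit, differed by 0.01 and -0.03.

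The HCN channels differed little. Hcn2 read 11.93, 11.94 and 11.97 in wild type and 11.85, 11.96 and 11.86 in the knockouts, a difference of -0.06 (95% interval -0.19 to 0.08). Hcn3 read 11.44, 11.33 and 11.34 against 11.30, 11.41 and 11.31, a difference of -0.03 (95% interval -0.17 to 0.12) that was 0.004 with array medians made equal.

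Of the 6 chloride channel and exchanger genes 5 were lower, 4 with array medians made equal, with a median of -0.073 and none past the threshold. Clcn7, the lysosomal exchanger, read 9.89, 9.93 and 10.03 in wild type and 9.81, 9.84 and 9.82 in the knockouts. Neither of its 2 probe sets overlapped between the genotypes. The differences were -0.13 (95% interval -0.27 to 0.01) and -0.08. Clcn5, an endosomal exchanger, read 8.53, 8.41 and 8.44 against 8.37, 8.36 and 8.29, a difference of -0.12 (95% interval -0.26 to 0.02) without overlap, and -0.01 at a dimmer probe set. Clcn3, its relative on endosomes and synaptic vesicles, read 11.79, 11.96 and 12.01 against 11.75, 11.78 and 11.99 at its brightest probe set. These groups overlapped, and its 4 probe sets differed by -0.10 to 0.002. Clcn4 gave opposite readings, 0.12 at one probe set and -0.11 at the other. Clcn2, a channel of glia and neurons, differed by -0.07, and Clcn1, the skeletal muscle channel, by -0.01.

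Every knockout array lay below every wild type array for 9 of the 88 probe sets, from 8 genes, against 6.63% of all probe sets, and above for 0 of 88 against 3.76%. The members' share of the first was 10.2%. With 1 array fewer such gaps are more common on the whole array too. The count was then 10 without knockout 1 (11.4% against 11.1%), 12 without wild type 1 (13.6% against 11.4%), 12 without wild type 3 (13.6% against 11.2%), 17 without knockout 3 (19.3% against 10.4%), 19 without wild type 2 (21.6% against 15.5%) and 26 without knockout 2 (29.5% against 19.4%). The count above stayed at 0 without knockout 1 and was 2 or 3 without any other array, against 5.76% to 8.71% of all probe sets. The margins were thin, between 0.015 log2 for the second probe set of Clcn7 and 0.057 for its first. Of the 8 genes, Kcnj6, Kcnj9, Clcn5 and Scn8a have another probe set whose groups overlapped, and the probe sets of Scn3a, Kcnj6 and Kcnj12 lay under percentile 25 of mean level.

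**Figure D2:**
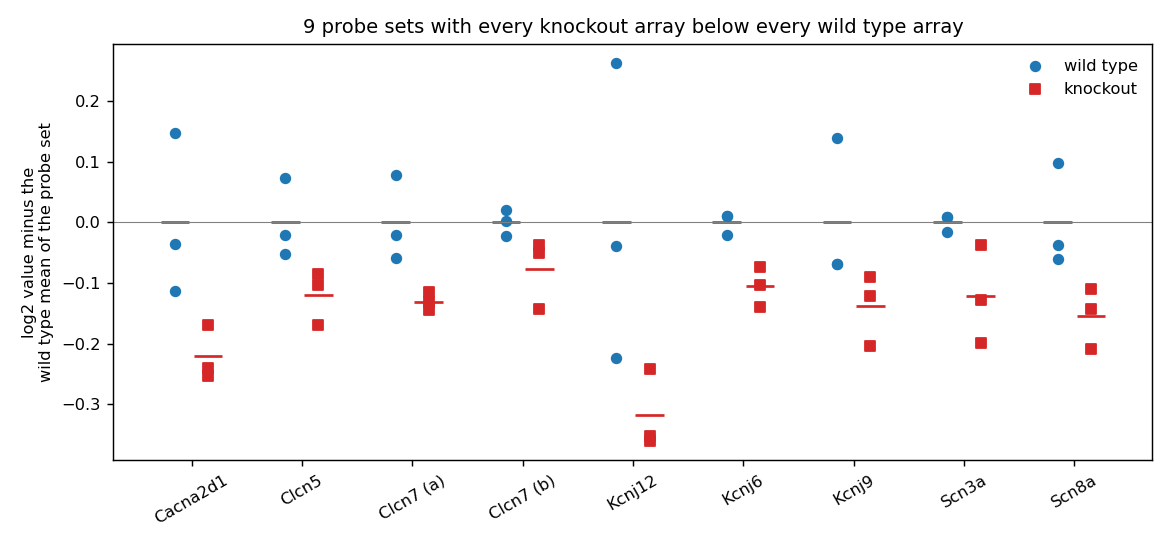
Values of the 9 channel probe sets in which all knockout arrays (red squares) lay below all wild type arrays (blue circles), each as log2 value minus the wild type mean of its probe set, with short lines at the group means. Clcn7 appears with both probe sets. The distance between the lowest wild type and the highest knockout array runs from 0.015 to 0.057, small beside the spread within wild type for Kcnj12 and Cacna2d1.

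The channel genes varied unevenly between arrays. The median channel gene spanned 0.228 log2 over the 6 arrays, close to the 0.231 of all genes, but Cacna1a, Kcna1, Scn1a, Kcnj12, Kcnma1, Kcnd2, Cacna1g, Cacng2, Kcne1l and Kcnk1 spanned 0.41 to 0.90. These 10, picked for their span, had wild type 3 as the highest array in 8 cases and knockout 1 as the lowest in 6. Over all 68 genes knockout 1 was the lowest array for 24 (35.3%, against 15.5% of all genes), knockout 3 for 23 (33.8%, against 28.6%), and wild type 3 was the highest for 21 (30.9%, against 16.5%). Within wild type alone Kcna1 ran from 9.48 to 9.92 and Cacna1a from 8.70 to 9.28, with genotype differences of -0.21 and -0.20. Both were picked for their span, and a span of 3 arrays is another measure than a difference of means.

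Marker genes of other cell types moved between the same arrays. The median deviation of 8 of the 10 listed Purkinje cell markers from their 6-array mean was -0.147 in knockout 1 and -0.121 in wild type 1. It was 0.025 to 0.084 in the other 4 arrays. The summed linear signal of these markers ran from 37324 to 45958 in wild type and from 36897 to 42006 in the knockouts. They were split in knockout 1. Pvalb, Gad1, Rora, Ppp1r17 and Pcp4 were at their lowest there, but Calb1, at 12.29, was at its highest. Pcp2 read 13.06 there, near its mean of 13.08. For 8 of 10 oligodendrocyte and myelin markers the deviation was -0.226 in knockout 1 and 0.143 in wild type 3, with summed signals of 24295 to 29168 and 21348 to 26812. For 7 of 10 granule neuron markers the median deviation stayed between -0.051 and 0.063, but single members moved more. Gabra6 ran from 11.80 in knockout 1 to 12.69 in wild type 3. By knockout mean 2 of the 7 were higher and 5 lower, among them Pax6 at 0.17 and Atoh1 at -0.13. For 8 of 10 astrocyte and Bergmann glia markers the median deviation lay between -0.067 and 0.092. That last list was split, 4 higher and 4 lower by knockout mean, with a median difference of 0.004. Gfap, Gdf10 and Fabp7 were higher by 0.15, 0.17 and 0.17. The water channel gene Aqp4 in it showed a difference of -0.37 (95% interval -0.60 to -0.13, limma adjusted p = 0.885). Aqp4 was the 1 of these 8 with every knockout array below every wild type array, against 6.63% of all probe sets. The choroid plexus list, 4 of 6 measured, moved most between arrays, from -0.318 in knockout 3 and -0.151 in wild type 1 to 0.210 in knockout 2, and its marker Ttr read 9.71 in wild type 1 and 10.20 in knockout 3 against 12.13 to 12.56 elsewhere. Blood genes were higher by knockout mean in 4 of 4 cases (5 listed), where 61.7% of all genes were lower. Their median difference was 0.22, with summed signals of 30164 to 34081 in wild type and 35737 to 40206 in the knockouts. None passed the threshold. Unadjusted limma p lay under 0.05 for 3 of the 4, against 5.08% of all probe sets. Every knockout array lay above every wild type array for 2 of them, Hba-a1 and Bpgm, against 3.76%. RMA values do not reach 0, and the lowest Purkinje marker, Pcp4, read 6.59. The part of these cells in the channel results, and that of the wide Gapdh gap in knockout 1, was not tested.

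**Figure D3:**
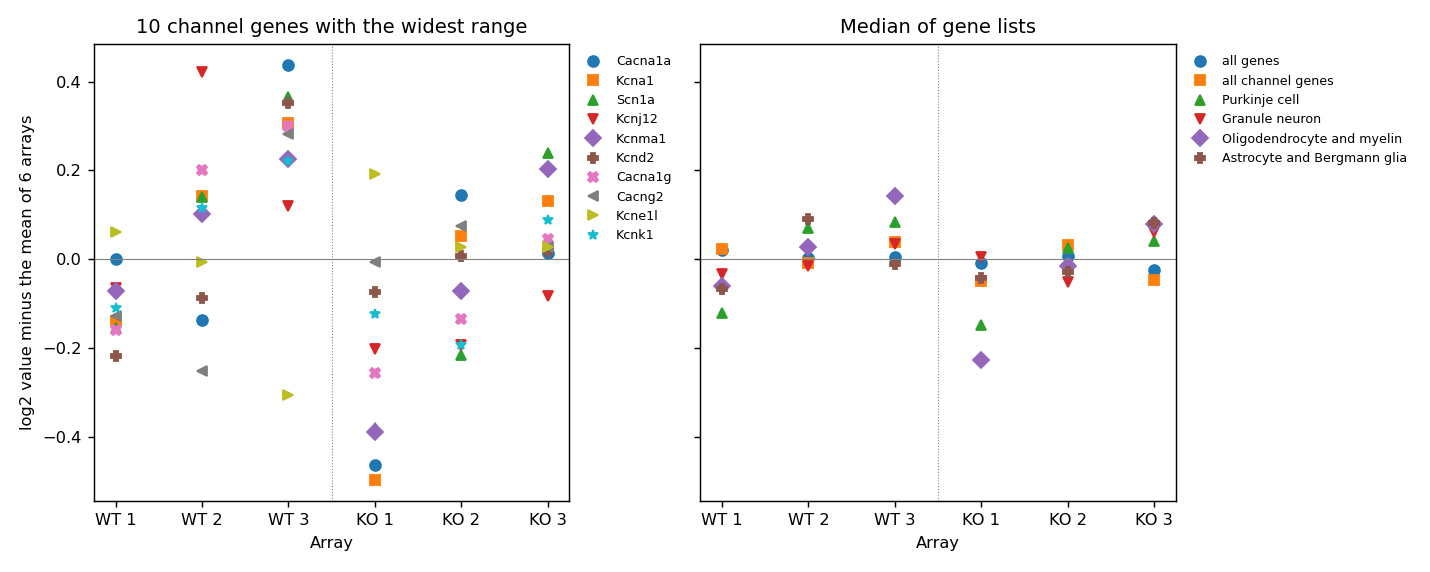
Left, log2 value minus the mean of the 6 arrays for the 10 channel genes with the widest span, by array (WT wild type, KO knockout, the number being the replicate). Right, the median of the same quantity over all genes, the channel genes and 4 marker lists. Cacna1a, Kcna1, Scn1a and Kcnma1 lie lowest in knockout 1. The medians of the Purkinje (-0.147) and myelin (-0.226) lists are also lowest there, though the Purkinje marker Calb1 is at its highest. The median of all genes stays within 0.024 of 0.

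Repeat measurements of a gene on the array bound what can be read from any single one. Of 18 channel genes with several probe sets, 38 in all, 9 had the same sign of difference in each and 9 did not. Their levels differed by 0.095 to 4.69 log2 between probe sets of the same gene. Hcn2 read 11.92 at one and 7.23 at the other, and Clcn1, a gene of skeletal muscle, read 10.39 and 6.57. Probe sets for other muscle genes read between 5.96 (Myh6) and 9.85 (Myh7) in this tissue. A level therefore belongs to its probe set, and no order of expression between channel genes was drawn. By position alone, 15 of the 68 genes lay under percentile 25 of mean level, among them 4 of the 6 sodium channel genes, and 14 lay above percentile 75, among them Hcn2, Clcn3, Kcnk1, Hcn3, Kcnq1 and Kcnk2.

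**Figure D4:**
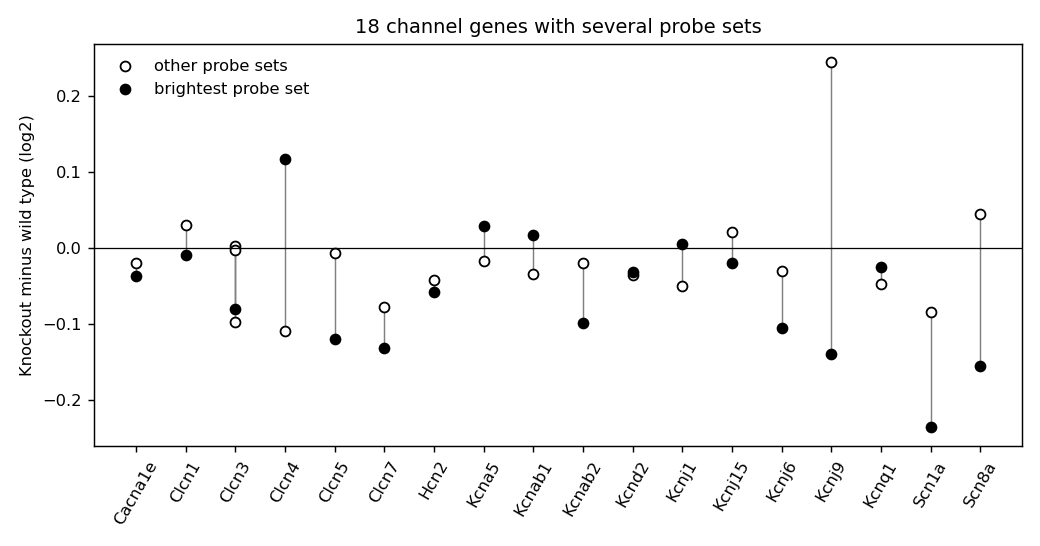
Difference between knockout and wild type (log2) at each probe set of the 18 channel genes with more than 1, with the brightest probe set filled and the others open, joined by a line. For Kcnj9 (-0.14 and 0.24), Clcn4 (0.12 and -0.11) and Scn8a (-0.15 and 0.04) the probe sets lie on opposite sides of 0.

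Partners of the channels were described in the same way. Of 50 listed genes that anchor, modify or work beside them, 30 were measured, with none past the threshold. By knockout mean 25 were lower and 5 higher, or 83.3% lower against 61.7% of all genes. Their median difference was -0.043 against -0.022 for all genes. Without knockout 1 these medians were -0.025 and -0.022. No recount of the partners under the other scalings is given here. Ank3, the ankyrin that tethers sodium channels at the initial segment, read 11.23, 11.23 and 11.57 in wild type and 11.13, 11.06 and 11.19 in the knockouts. The difference was -0.22 (95% interval -0.43 to -0.01, adjusted p = 0.922). Ank3 was the 1 of the 30 with every knockout array below every wild type array, against 6.63% of all probe sets. It was also the 1 of the 30 with an unadjusted limma p under 0.05, against 5.08%. Both shares lay below the background. Ryr2, a calcium release channel of internal stores, had the widest difference at -0.32, with wild type 3 at 9.94 and the other 5 arrays between 9.02 and 9.27. Atp2b2, a calcium pump of Purkinje cells, differed by -0.27 with wild type 3 again the highest array at 9.59. The sodium pump subunit Atp1b3 had the largest higher reading of the list at 0.15, and the potassium channel partner Dpp6 differed by -0.02 (95% interval -0.16 to 0.12).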

How the data were processed

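The authors deposited 1 log2 expression value per probe set and array, and the submitters' processing notes name RMA, a method that removes background, scales arrays to each other and combines the probes of a set. No label states its version, its settings or a genome build. RMA draws arrays towards 1 distribution, so a change in total RNA per cell is not visible.

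The 66 array controls were left out of the 12422 probe sets tested. The annotation table for the array gave 1 symbol to 10833 probe sets, several to 396 and none to 1193. All 88 channel probe sets had the same symbol in RefSeq (GRCm38.p6, names only). Arrays carry no read depth, and their number, 3 per genotype, limits the precision.

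Genotype was tested with limma 3.58.1 (R 4.3.3, lmFit and eBayes, 2-sided, Benjamini-Hochberg over all 12422 probe sets, threshold 0.05), with exact permutation tests beside it. Each array was taken as 1 mouse, from the series' text. Members and lists were chosen with earlier results of these data known. Values by array were given for the 2 genes with the smallest p and the 1 with the highest level in each class. The 10 genes of widest span, Kcnj6 for its groups that do not overlap, and partner and marker genes named were chosen after their values were seen. Alternatives were quantile normalization, equal array medians, a filter on dim probe sets, array weights, a variance trend, a replicate block, averaging or narrowing a gene's probe sets, and leaving out each array.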

Additional observations from a re-analysis of the deposited data

How the results depend on the processing

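The number of channel probe sets called stayed at 0 under all 13 alternatives, and the adjusted p of the 29 genes recomputed was at or above 0.428 throughout. Over the whole array 0 to 1 probe sets were called when single arrays were left out, the 1 without knockout 3. Before adjustment, p under 0.05 held for 3 channel probe sets, 11 with array weights (12.5% against 9.35% of all probe sets), 0 of 45 after the filter at percentile 40 of mean level (against 5.38%), and 2 to 9 with single arrays left out (2.27% to 10.2%, against 3.18% to 8.68%). With the replicate number as a block there were 5 (5.68% against 5.10%). The numbers did not pair the arrays throughout: over all probe sets, deviations of same-numbered arrays correlated at 0.16, -0.32 and 0.17. Over the channel genes alone these were 0.57, -0.47 and 0.43, against -0.71 to 0.34 for arrays of unlike number. Deviations were taken from the mean of each genotype's 3 arrays, so these correlations depend on each other.

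The channel median of -0.043 ran from -0.084 to -0.024 with single arrays left out, potassium from -0.074 to -0.020, calcium from -0.112 to -0.014 and chloride from -0.082 to -0.041. The sodium median was -0.060 with array medians made equal, -0.058 with a gene's probe sets averaged, and -0.24 after the filter, which left 1 gene. The potassium median was 0.001 with array medians made equal. The cause of these moves was not tested.

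Of the 29 genes 21 kept their direction throughout. With array medians made equal, Hcn3 turned to 0.0043, Kcnd2 to 0.00092 and Kcnq1 to 0.0078. Cacng2 turned to -0.018 with array weights and Kcnj9 to 0.053 with its probe sets averaged. With single arrays left out, the ranges of those that turned were -0.155 to 0.028 for Cacna2d3, -0.044 to 0.222 for Cacng2, -0.062 to 0.010 for Hcn3, -0.147 to 0.137 for Kcnd2, -0.089 to 0.0019 for Kcnj11, -0.0032 to 0.084 for Kcnn1 and -0.084 to 0.028 for Kcnq1. Signal over background was not analysed here, and 15 of the 68 genes lay under percentile 25 of mean level.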
